A study of Mus musculus with 12 samples.

Results

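The glucocorticoid receptor gene and 9 genes that the receptor commonly induces were followed in mouse tumours: Nr3c1, Tsc22d3, Klf9, Zbtb16, Dusp1, Ddit4, Arrdc2, Sgk1, Fkbp5 and Mt2. These 10 genes, of 56884 in the count tables, were chosen by name for their known relation to the receptor and matched by gene identifier. The list was drawn up with earlier results of these libraries in view, and it has no cutoff on measured values. Adjusted p-values below therefore say where a gene stands in the fit over all genes, and they do not support the choice of the genes. All 10 passed the filter on low counts, with 41 to 560 counts per library for Zbtb16 and at least 373 for each of the others.

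RNA came from tumours grown from TS/A, a mouse mammary carcinoma line, together with cancer-associated fibroblasts, and the genotype is given as WT. The 12 libraries form 4 groups of 3. Control tumours have the treatment label None, and the series text calls this group vehicle. RT tumours received radiotherapy, FAP41BBL tumours received muFAP-4-1BBL, and RT_FAP41BBL tumours received both. The agent muFAP-4-1BBL delivers the 4-1BB ligand, which costimulates T cells, to cells that carry fibroblast activation protein. The labels give no animal, age, dose, day or hour of harvest, and p-values measure only how these samples spread, which can be technical.

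Glucocorticoids such as corticosterone cross the cell membrane and bind a receptor held ready in the cytoplasm by HSP90 and its partner proteins. The bound receptor enters the nucleus, where it activates genes through glucocorticoid response elements and dampens genes driven by NF-kB and AP-1. Blood corticosterone follows the time of day and stress, and the induced genes serve as a readout of receptor activity in many tissues, although each also answers to other signals.

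Library totals lay between 34076477 and 42067481 counts. Levels are given as TMM-scaled CPM, which sets a gene's counts against the size of its library, and changes as log2 fold changes ± SE. Transcripts of skeletal muscle set the RT libraries apart: the sum over 19 muscle markers was 6610 to 14500 CPM in RT, against 247 to 856 in control, 236 to 2410 in FAP41BBL and 656 to 1170 in RT_FAP41BBL. The 9 fibroblast markers summed to 4940 to 11200 CPM over all libraries. The 9 epithelial markers summed to 324 to 589 CPM over all libraries, of which Krt8 alone gave 231 to 437, while Epcam lay between 0.0824 and 8.18 CPM.

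Promoter sequences of 8 of the 10 genes were found in RefSeq on GRCm38.p6, in 15 windows of the 250 bases before a transcript start. Zbtb16 and Nr3c1 had no entry. The windows were searched on both strands for the core AGAACA of the glucocorticoid response element, for the full element, which is that core and its reverse complement TGTTCT with any 3 bases between them, the cyclic AMP response element TGACGTCA and the metal response element in the forms TGCGCNC and TGCACNC. Each full element thus holds the core once on each strand. The 3 windows printed here are those that hold the full glucocorticoid element, the cyclic AMP element and the most metal element matches, with those matches in capitals. Further matches of the core alone, such as one in the Sgk1 window 242 to 237 bases before the start, are left in lower case. They are Sgk1 at chr10:21993640-21993889 on the plus strand, Dusp1 at chr17:26508473-26508722 on the minus strand and Mt2 at chr8:94172368-94172617 on the plus strand.
Sgk1: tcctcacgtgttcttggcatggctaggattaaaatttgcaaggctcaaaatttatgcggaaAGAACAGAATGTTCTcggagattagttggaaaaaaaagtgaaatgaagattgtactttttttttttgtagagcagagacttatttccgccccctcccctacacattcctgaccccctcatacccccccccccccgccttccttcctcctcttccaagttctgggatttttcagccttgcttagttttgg
Dusp1: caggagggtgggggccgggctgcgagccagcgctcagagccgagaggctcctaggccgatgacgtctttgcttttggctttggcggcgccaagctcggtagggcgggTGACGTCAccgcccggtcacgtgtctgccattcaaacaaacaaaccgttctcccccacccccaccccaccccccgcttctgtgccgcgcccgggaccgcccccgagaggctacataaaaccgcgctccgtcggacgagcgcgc
Mt2: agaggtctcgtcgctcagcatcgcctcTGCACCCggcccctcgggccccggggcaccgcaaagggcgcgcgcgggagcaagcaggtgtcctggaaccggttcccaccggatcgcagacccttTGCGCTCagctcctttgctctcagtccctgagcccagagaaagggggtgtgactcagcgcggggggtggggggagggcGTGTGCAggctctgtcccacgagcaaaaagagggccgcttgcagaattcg
The Sgk1 match lies 189 to 175 bases before the start, in 1 of the 6 Sgk1 windows. The full element occurred in 3 of all 32851 windows of this length (0.00913%), and the core occurred in 16.1% of windows, among them windows of Tsc22d3 and Sgk1. The Dusp1 cyclic AMP element lies 143 to 136 bases before the start, and 1.55% of all windows hold one. Of the metal elements, TGCGCNC was found in 12.5% of windows, including those of Mt2 and Ddit4, and TGCACNC in 10.4%, including that of Mt2. These are matches of letters in short windows, and binding was not measured.

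Per length of transcript, averaged over the 12 libraries, Mt2 was the most abundant of the 10 at 384 RPKM (CPM per kilobase of transcript). Ddit4 followed at 25.3 RPKM, and Fkbp5, Nr3c1, Tsc22d3 and Sgk1 lay close together between 19 and 20.2 RPKM. Dusp1 stood at 11.9 RPKM, Arrdc2 at 6.84, Klf9 at 3.91 and Zbtb16 at 1.19. Across libraries the most variable gene was Zbtb16, with a highest level 13.5 times its lowest in CPM, and the least variable was Nr3c1, with a ratio of 1.31.

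**Figure D1:**
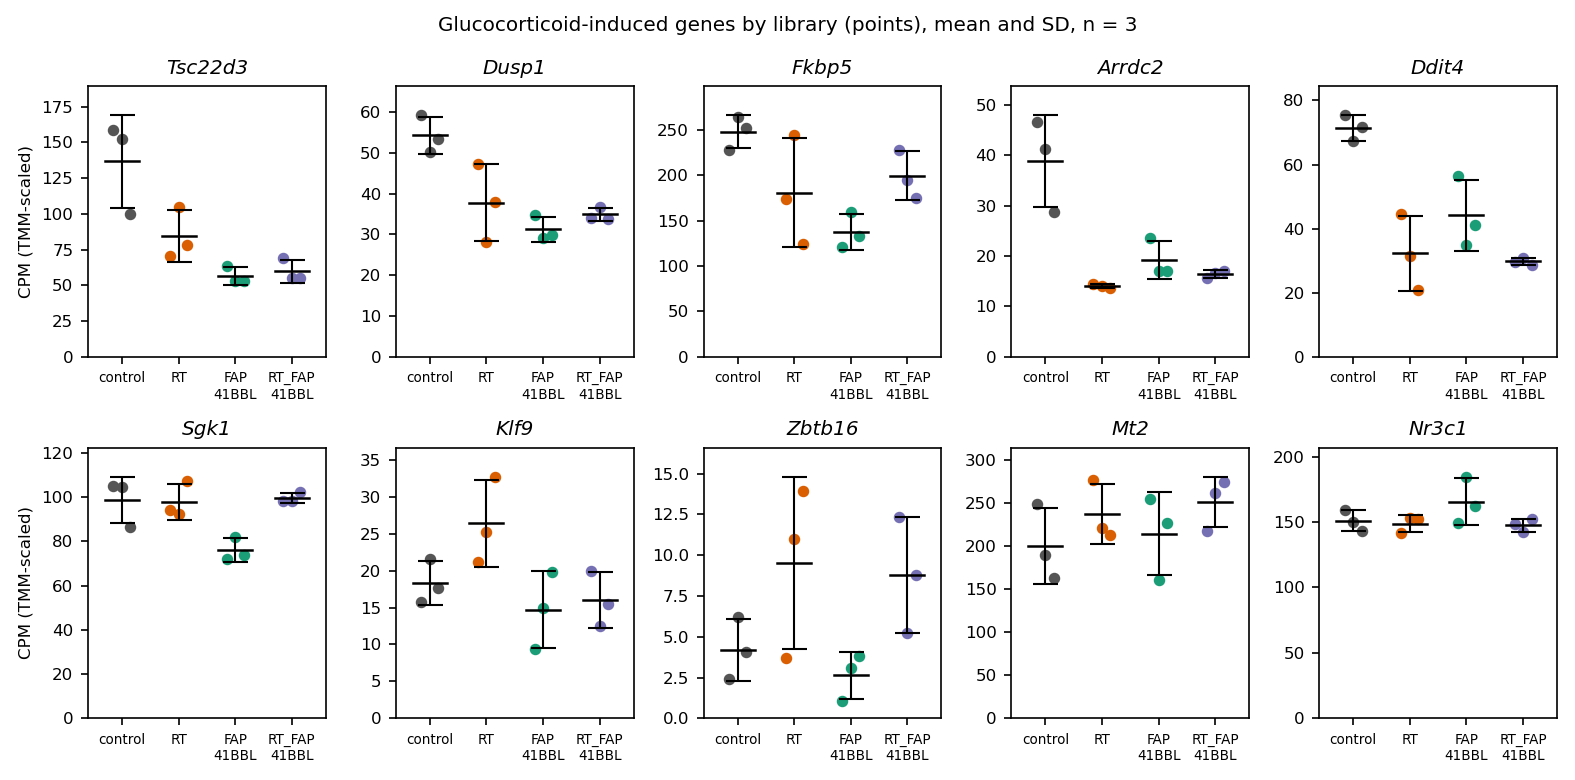
Levels of the 10 genes in CPM on the vertical axis of each panel, by group; points are libraries, the wide bar is the mean and the whiskers are the SD, n = 3. Dusp1, Arrdc2 and Ddit4 are lower in all 9 treated libraries than in any control library, while the 12 Nr3c1 values stay between 141 and 185 CPM.

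Nr3c1, which encodes the glucocorticoid receptor (ENSMUSG00000024431.16, chromosome 18, 39543598 to 39652474, minus strand, GRCm39), showed overlapping levels in all 4 groups. It stood at 159, 150 and 143 CPM in the control libraries, 141, 153 and 152 in RT, 149, 185 and 163 with the agonist alone, and 148, 142 and 152 in RT_FAP41BBL. Only FAP41BBL replicates 2 and 3 were above the highest control. Its log2 change against control was -0.02 in RT (95% interval -0.22 to 0.18), 0.13 in FAP41BBL (-0.07 to 0.34) and -0.03 in RT_FAP41BBL (-0.24 to 0.17), so that changes of the size seen below for Tsc22d3 lie outside these intervals. Receptor protein and its location were not measured.

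Tsc22d3 encodes GILZ, a leucine zipper protein that restrains NF-kB and AP-1 (ENSMUSG00000031431.14, chromosome X, 139440277 to 139501408, minus strand). Its level was 159, 152 and 99.5 CPM in the control libraries, 70.2, 105 and 78.4 in RT, 63.7, 52.9 and 53.2 with the agonist alone, and 69.1, 55.4 and 55.1 in RT_FAP41BBL. All treated libraries except RT replicate 2 were below the lowest control, and every RT_FAP41BBL library was below every RT library. Tsc22d3 fell in RT (log2 -0.70 ± 0.19, adjusted p = 0.0375, edgeR's quasi-likelihood test) and in RT_FAP41BBL (-1.19 ± 0.19, adjusted p = 0.00466). In FAP41BBL the change was -1.27 ± 0.19 and missed the threshold at an adjusted p of 0.067. The call in RT was lost without control replicate 1 (adjusted p = 0.127), control replicate 2 (0.11), RT replicate 1 (0.0982) or RT replicate 3 (0.0866), whereas the FAP41BBL change passed without control replicate 3 (-1.46, adjusted p = 0.0172).

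Klf9 and Zbtb16 encode zinc finger transcription factors, Krüppel-like factor 9 and PLZF. Klf9 (ENSMUSG00000033863.3, chromosome 19, 23118590 to 23145498, plus strand) stood at 15.7, 21.5 and 17.6 CPM in the control libraries, 21.1, 25.3 and 32.7 in RT, 9.39, 14.9 and 19.8 with the agonist alone, and 20, 12.5 and 15.4 in RT_FAP41BBL. Zbtb16 (ENSMUSG00000066687.6, chromosome 9, 48565597 to 48747522, minus strand) stood at 2.41, 6.2 and 4.04 CPM in the control libraries, 3.7, 11 and 14 in RT, 1.03, 3.07 and 3.8 with the agonist alone, and 12.3, 5.22 and 8.82 in RT_FAP41BBL. Each treated group overlapped the controls for both genes, and neither gene passed the test in any comparison. The log2 change in RT was 0.53 ± 0.26 for Klf9 (adjusted p = 0.242) and 1.18 ± 0.58 for Zbtb16 (adjusted p = 0.245), where that of Tsc22d3 was below 0. In FAP41BBL all 3 were below 0, Klf9 at -0.32 ± 0.26 and Zbtb16 at -0.69 ± 0.59, and in RT_FAP41BBL Klf9 was at -0.19 and Zbtb16 at 1.06 ± 0.58.

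Dusp1 encodes a phosphatase that switches off MAP kinases (ENSMUSG00000024190.8, chromosome 17, 26724564 to 26781102, minus strand). It was measured at 59.3, 50.2 and 53.4 CPM in the control libraries, 47.3, 28.2 and 37.9 in RT, 34.8, 29.1 and 29.8 with the agonist alone, and 34.1, 36.7 and 33.8 in RT_FAP41BBL. No treated library reached the lowest control. Dusp1 fell in RT_FAP41BBL (-0.64 ± 0.15, adjusted p = 0.0258), a call that was lost when any 1 of the 6 compared libraries was left out (adjusted p from 0.0641 to 0.102). The change was -0.52 ± 0.15 in RT (adjusted p = 0.051) and -0.80 ± 0.15 in FAP41BBL (adjusted p = 0.327). The RT change passed in 7 of 14 alternative fits, 1 of them without RT replicate 1 (-0.72, adjusted p = 0.00957). DESeq2 (adjusted p = 0.017) and limma-voom (0.0389) called it. So did edgeR with RLE factors (0.0487), library totals (0.0372), no low-count filter (0.0356) or the replicate number as a block (0.0292).

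Ddit4 encodes REDD1, an inhibitor of the growth kinase complex mTORC1 (ENSMUSG00000020108.5, chromosome 10, 59785491 to 59787656, minus strand). Control libraries held 75.4, 67.3 and 71.6 CPM, RT libraries 44.5, 31.3 and 20.9, FAP41BBL libraries 56.6, 35 and 41, and RT_FAP41BBL libraries 29.7, 30.8 and 28.8. Again all 9 treated libraries were below the controls, and every RT_FAP41BBL library was below every FAP41BBL library. Ddit4 fell in RT (-1.15 ± 0.23, adjusted p = 0.0107) and in RT_FAP41BBL (-1.26 ± 0.23, adjusted p = 0.00921), in each of the 6 fits that left out 1 compared library as well. With the agonist alone the change was -0.69 ± 0.23 (adjusted p = 0.845).

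Arrdc2 encodes a protein with arrestin domains, a family that guides membrane proteins to degradation (ENSMUSG00000002910.12, chromosome 8, 71287773 to 71292364, minus strand). Its level was 46.5, 41.3 and 28.7 CPM in the control libraries, 14.4, 14.1 and 13.7 in RT, 23.5, 17 and 17 with the agonist alone, and 15.5, 16.7 and 17 in RT_FAP41BBL. The 3 RT libraries were the lowest of all 12 and spread by less than 1 CPM. Arrdc2 fell in RT (-1.46 ± 0.17, adjusted p = 0.000797) and in RT_FAP41BBL (-1.24 ± 0.17, adjusted p = 0.00246), with each compared library left out as well. In FAP41BBL the change was -1.02 ± 0.17 (adjusted p = 0.114), and it passed without control replicate 3, the lowest control (-1.20, adjusted p = 0.0213).

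Sgk1 encodes a kinase that acts on ion transport and cell survival (ENSMUSG00000019970.16, chromosome 10, 21758083 to 21875802, plus strand), and 1 of its windows holds the full response element printed above. It stood at 105, 105 and 86.6 CPM in the control libraries, 93.9, 92.3 and 107 in RT, 72.2, 82 and 74 with the agonist alone, and 98.3, 98.2 and 102 in RT_FAP41BBL. The FAP41BBL libraries were the 3 lowest of the 12, and the other groups overlapped. The log2 change was -0.38 ± 0.10 in FAP41BBL against control (adjusted p = 0.682) and 0.39 ± 0.10 in RT_FAP41BBL against FAP41BBL (adjusted p = 0.0904), neither past the threshold. In RT and RT_FAP41BBL it was -0.01 ± 0.10 and 0.01 ± 0.10 against control.

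Fkbp5 encodes FKBP51, an HSP90 partner that lowers the receptor's affinity for hormone and so closes a feedback loop (ENSMUSG00000024222.18, chromosome 17, 28618068 to 28736501, minus strand). Its level was 228, 264 and 252 CPM in the control libraries, 174, 244 and 125 in RT, 121, 160 and 133 with the agonist alone, and 228, 195 and 175 in RT_FAP41BBL. The FAP41BBL libraries lay below every control and every RT_FAP41BBL library, while RT spread from 125 to 244 CPM. No change passed the test: it was -0.85 ± 0.20 in FAP41BBL (adjusted p = 0.532), -0.46 ± 0.20 in RT (adjusted p = 0.186) and -0.31 ± 0.20 in RT_FAP41BBL (adjusted p = 0.383). Without RT replicate 2, the highest of its group, the RT change was -0.74 (adjusted p = 0.0268).

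Mt2, a metallothionein gene that both zinc and glucocorticoids induce (ENSMUSG00000031762.8, chromosome 8, 94899292 to 94900196, plus strand), stood at 249, 189 and 163 CPM in the control libraries, 277, 221 and 213 in RT, 255, 161 and 227 with the agonist alone, and 218, 261 and 274 in RT_FAP41BBL. The groups overlapped, and the log2 changes against control were 0.24 ± 0.19, 0.10 ± 0.19 and 0.32 ± 0.19 in RT, FAP41BBL and RT_FAP41BBL. Its neighbour Mt1, between 94.1 and 164 CPM, likewise passed in no comparison.

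Counted together, 3 of the 10 genes fell and none rose in RT against control (Tsc22d3, Arrdc2 and Ddit4), where 3.05% of the 17757 genes tested were called lower and 9.62% were called in either direction. There DESeq2 and limma-voom each called Dusp1 as well, 4 in all, with 2507 and 1760 of the 17757 genes called in either direction. In RT_FAP41BBL against control 4 fell, Dusp1 in addition, where 2.31% of all genes were called lower and 7.91% in either direction. In FAP41BBL against control none of the 10 passed edgeR's test, as 0.00563% of genes did. At an unadjusted p under 0.05, 6 of the 10 were lower, against 1.77% of all genes. DESeq2 called 4 of them (Tsc22d3, Dusp1, Fkbp5 and Arrdc2), among 48 of all 17757 genes. limma-voom called none of the 10 and 1 of all genes. The median log2 change of the 10 was -0.24 in RT, -0.69 in FAP41BBL and -0.25 in RT_FAP41BBL, beside 0, 0.01 and 0.01 over all genes tested. These 3 comparisons share their control libraries.

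Measured by separation of the libraries alone, 3 of the 10 had every RT library below every control (11.1% of all genes did), 6 had every FAP41BBL library below every control (5.07%), and 4 had every RT_FAP41BBL library below every control (18.5%). For Dusp1, Arrdc2 and Ddit4 all 9 treated libraries were below all controls, a pattern that 1.77% of genes showed. Tsc22d3, Arrdc2 and Ddit4 were called lower in both RT and RT_FAP41BBL, as 1.09% of genes were.

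**Figure D2:**
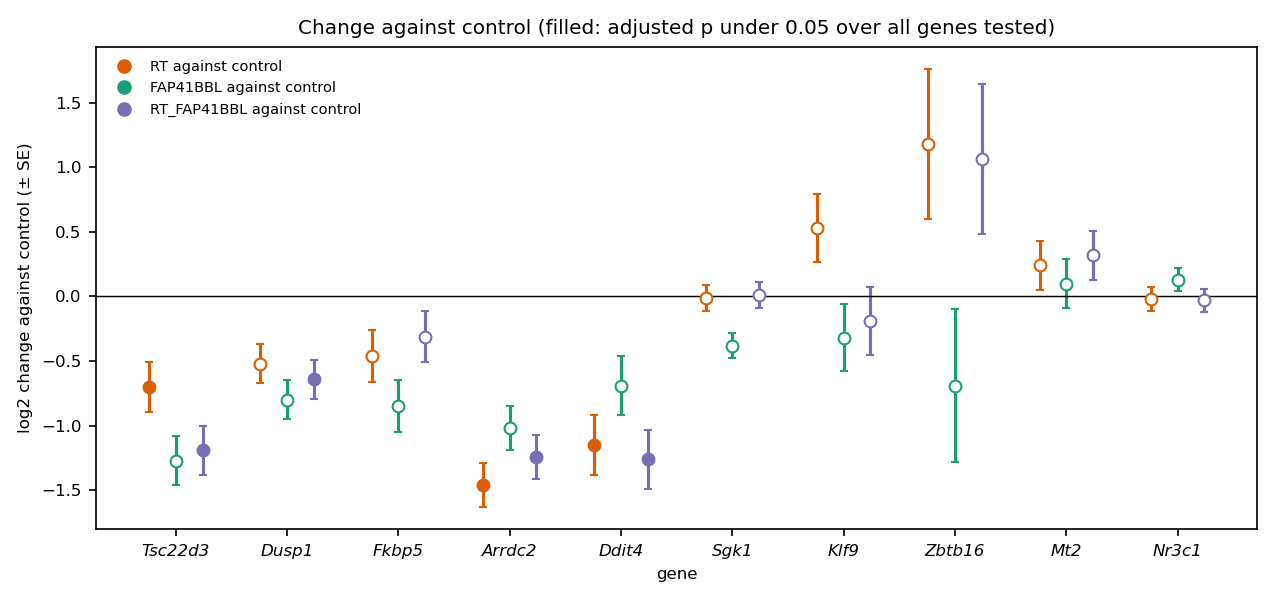
Log2 change against control ± SE on the vertical axis for each of the 10 genes, by treated group; filled points have an adjusted p under 0.05 over all genes tested. Filled points are Arrdc2, Ddit4 and Tsc22d3 for RT, with Dusp1 in addition for RT_FAP41BBL, and all are below 0.

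The comparison of RT_FAP41BBL with RT asked what the agonist changed in irradiated tumours, and it shares no library with FAP41BBL against control. None of the 10 passed edgeR's test (5.76% of all genes did), and 2 had an unadjusted p under 0.05 (23% of genes). DESeq2 and limma-voom also called none of the 10, with 2063 and 1331 of all 17757 genes called. The log2 change was -0.50 ± 0.19 for Tsc22d3 (adjusted p = 0.138) and -0.72 ± 0.26 for Klf9 (adjusted p = 0.124). For Fkbp5, Arrdc2 and Sgk1 it was 0.14 ± 0.20, 0.22 ± 0.17 and 0.02 ± 0.10, where the agonist without radiotherapy gave -0.85 ± 0.20, -1.02 ± 0.17 and -0.38 ± 0.10.

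RT_FAP41BBL against FAP41BBL asked what radiotherapy changed beside the agonist, and it shares no library with RT against control. Again none of the 10 passed edgeR's test (0.946% of all genes did), and 4 had an unadjusted p under 0.05 (13.5% of genes). DESeq2 called Sgk1 and Zbtb16, among 774 of all 17757 genes tested. limma-voom called none of the 10 and 236 of all genes. The log2 change was 0.53 ± 0.20 for Fkbp5 (adjusted p = 0.253), -0.57 ± 0.23 for Ddit4 (adjusted p = 0.297) and 1.74 ± 0.59 for Zbtb16 (adjusted p = 0.211). For Tsc22d3 it was 0.08 ± 0.19, where radiotherapy without the agonist gave -0.70 ± 0.19.

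The interaction term, the change with radiotherapy beside the agonist minus the change without it, was above 0 for 7 of the 10 genes, with a median of 0.57 beside 0 over all genes. It was 1.24 ± 0.24 for Arrdc2 (adjusted p = 0.0657), 0.99 ± 0.28 for Fkbp5 (0.155), 0.78 ± 0.27 for Tsc22d3 (0.218) and 0.68 ± 0.22 for Dusp1 (0.189). None of the 10 passed edgeR's test (0.152% of all genes did), and 5 had an unadjusted p under 0.05 (14.1% of genes). DESeq2 called Arrdc2 and Fkbp5, among 633 of all 17757 genes tested. limma-voom called none of the 10 and 31 of all genes. Arrdc2 also passed without control replicate 3 (1.42, adjusted p = 0.0439) or RT replicate 3 (1.22, adjusted p = 0.0466). A difference between the changes with and without the other treatment was therefore not established for any of the 10 by the main test.

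**Figure D3:**
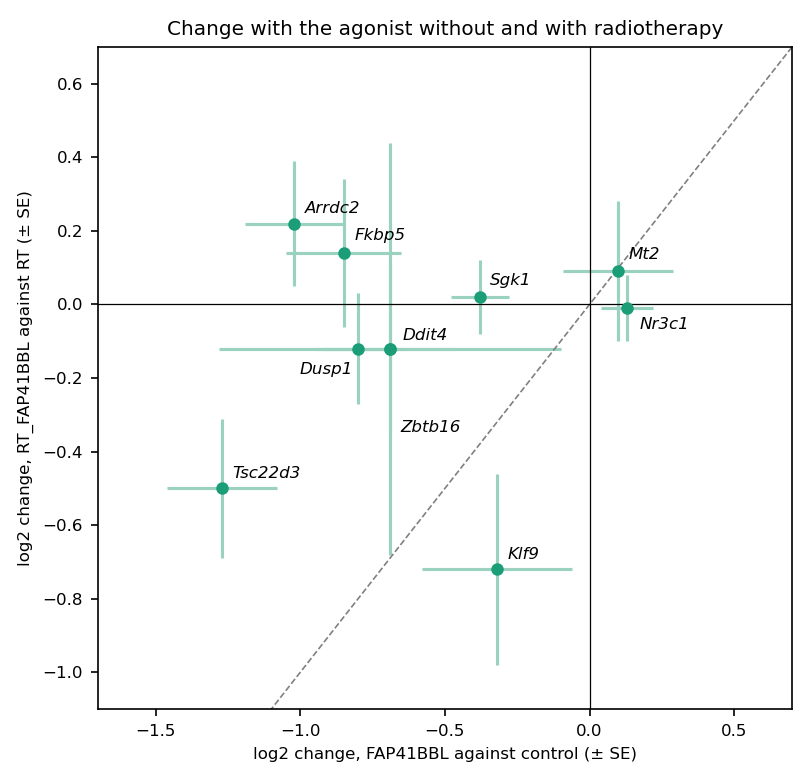
Log2 change with the agonist without radiotherapy (FAP41BBL against control, horizontal axis) and with it (RT_FAP41BBL against RT, vertical axis), ± SE, for the 10 genes; the dashed line marks equal changes. Of the genes on the left, Tsc22d3, Fkbp5, Dusp1, Arrdc2 and Sgk1 lie above the line and Klf9 below it, and the points of Ddit4 and Zbtb16 coincide at -0.69 and -0.12.

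Per1, a clock gene that the receptor also induces, was the closest match to Tsc22d3 among 11776 genes ranked by correlation of log2 CPM over the 12 libraries. Its levels were 134, 135 and 104 CPM in the control libraries, 42.7, 66.2 and 54.5 in RT, 46.6, 49.5 and 35.6 with the agonist alone, and 34.1, 32.7 and 33.7 in RT_FAP41BBL. Every treated library was below every control. Beside its changes against control, Per1 fell in RT_FAP41BBL against RT (-0.70 ± 0.16, adjusted p = 0.0303), a call that was lost without RT replicate 2 (adjusted p = 0.115) or without any 1 of the RT_FAP41BBL libraries (0.0779 to 0.122). With a score of the muscle markers as a covariate this change was -0.78 and did not pass (adjusted p = 0.229). The correlation with Tsc22d3 was 0.93 over the 12 libraries and 0.75 with group means subtracted, a level that 2.79% of 12691 genes reached. The next closest were Wee1, Tent5b, Iars2, Ak4, Slc25a47, Dgcr8 and Dele1, with correlations from 0.85 to 0.91. Wee1, which encodes a kinase that holds back entry into mitosis, ran from 31.4 to 39.8 CPM in control and from 26 to 37.3 in the treated libraries, so that its range is far narrower than that of Tsc22d3. For the mean z score of the 10 genes the closest were Wee1, Ppp1r10, Fech, Tent5b, Mknk2, Per1, Slc25a47 and Slc22a5 (0.77 to 0.85).

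Among themselves the 10 genes did not vary as 1 block within groups. With group means subtracted from the 12 libraries, the median correlation over their 45 pairs was 0.06, beside 0 over all pairs of the 12692 genes whose mean log2 CPM reached 1. Klf9 and Zbtb16 went together at 0.92, a level that 0.0946% of genes reached with Zbtb16, and Tsc22d3 and Arrdc2 at 0.65, which 7.71% of genes reached with Tsc22d3. Zbtb16 went against Ddit4 (-0.81) and Dusp1 (-0.73). Mt1 and Mt2 stood at 0.92, but they are close in sequence and may share reads, so that their separate values are uncertain. Libraries of a group share their treatment, and these values describe 12 points with no test.

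**Figure D4:**
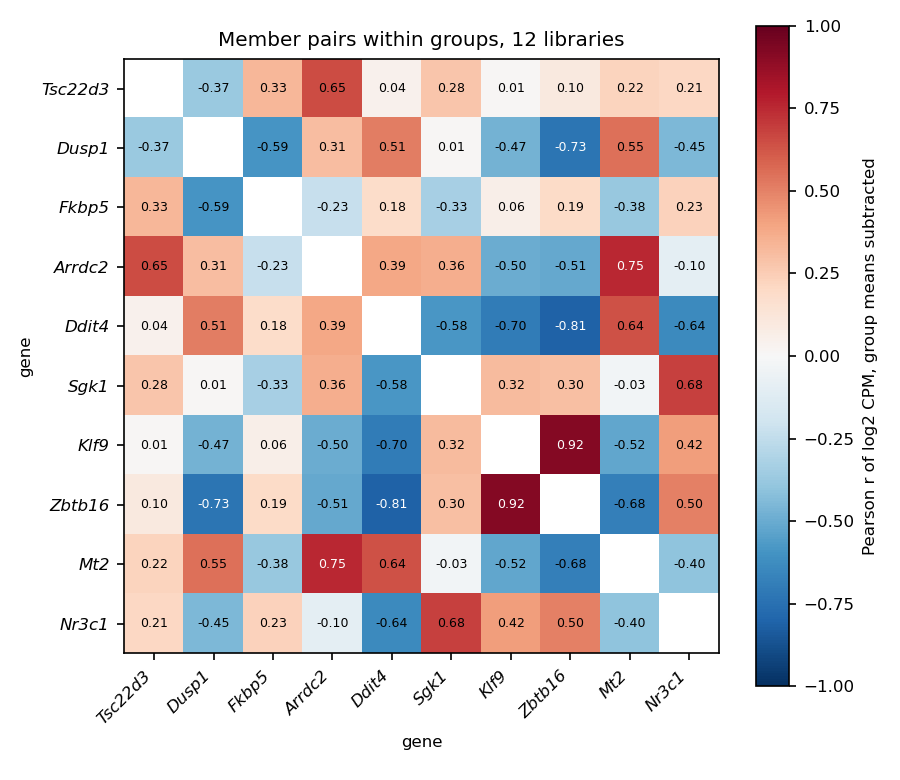
Correlation of log2 CPM between the 10 genes over 12 libraries with group means subtracted, coloured from -1 to 1. The pair Klf9 and Zbtb16 stands at 0.92, whereas Zbtb16 with Ddit4 stands at -0.81 and the median of the 45 pairs is 0.06.

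**Figure D5:**
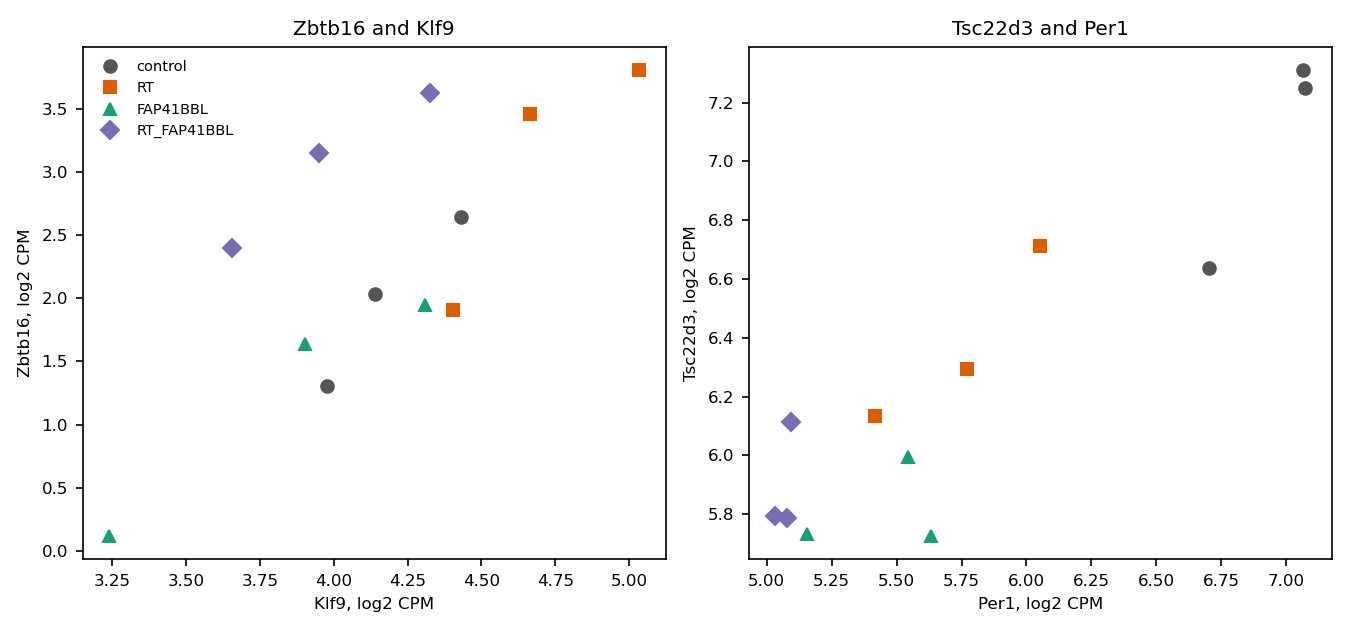
Log2 CPM of gene pairs in the 12 libraries, coloured by group. Per1 and Tsc22d3 are both high in the controls, with a correlation of 0.93, and Klf9 and Zbtb16 vary together within groups, with a correlation of 0.92 once group means are subtracted.

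Transcripts of other cells moved with some of these values. In bulk RNA, fewer cells of a type and less RNA per cell cannot be told apart. With a library's muscle score entered as a covariate, none of the 10 genes passed in RT against control, a fit in which 1 gene of all tested passed. In it the change was -1.77 ± 0.28 for Arrdc2 (adjusted p = 0.0918) and -1.01 ± 0.31 for Tsc22d3 (adjusted p = 0.251). That of Ddit4 was -1.13 ± 0.41 (adjusted p = 0.33), and that of Klf9 was 0.10 ± 0.43. The 4 calls in RT_FAP41BBL against control held with the covariate.

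The 9 macrophage markers summed to 2420 to 3000 CPM in control, 1770 to 3080 in RT, 2720 to 3010 in FAP41BBL and 3910 to 5020 in RT_FAP41BBL, none of them at 0. Within groups the macrophage score stood at -0.82 with Tsc22d3, -0.73 with Fkbp5 and 0.49 with Dusp1. This and the other score correlations below were picked from all pairs of gene and score. The share of all genes that reach them was not computed. The 11 adipocyte markers summed to 48.2 to 156 CPM in control, 184 to 545 in RT, 271 to 552 in FAP41BBL and 163 to 606 in RT_FAP41BBL, with no overlap of these sums between control and any treated group. Taken singly, 2 of the 11 had every RT library above every control, 10 every FAP41BBL library and 6 every RT_FAP41BBL library. Of the 11, 0, 0 and 1 were called higher in these 3 groups. Within groups the adipocyte score stood at 0.72 with Sgk1 and 0.67 with Klf9, and the fibroblast score at 0.81 with Klf9. The 10 T cell markers summed to 54.7 to 91.9 CPM in control, 36.1 to 66.6 in RT, 91 to 106 in FAP41BBL and 96.3 to 133 in RT_FAP41BBL. Within groups the T cell score stood at -0.68 with Tsc22d3, -0.7 with Fkbp5 and 0.68 with Dusp1. The 6 neutrophil markers summed to 30.3 to 34.1 CPM in control and to 74.7 to 95.2 in RT_FAP41BBL. Within groups the neutrophil score stood at -0.63 with Ddit4 and 0.65 with Klf9. The 8 endothelial markers summed to 237 to 276 CPM in control and to 341 to 394 in RT_FAP41BBL. The 9 epithelial markers summed to 407 to 499 CPM in control, 324 to 589 in RT, 325 to 476 in FAP41BBL and 333 to 396 in RT_FAP41BBL. Their median log2 change, which weighs low markers as much as Krt8, went another way. It was -0.68 in RT and 0.86 in RT_FAP41BBL against control. In RT_FAP41BBL against RT it was 1.45, where 7 were above 0 and 1 was called higher. A rise of epithelial transcripts as a whole was thus not shown. The part of macrophages, adipocytes, fibroblasts, T cells, neutrophils, endothelial and epithelial cells in the changes of the 10 genes was not tested. That of skeletal muscle cannot be told apart from radiotherapy in the RT libraries.

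Of 30 further genes that glucocorticoids are known to induce, 4 rose and 2 fell in RT, with a median log2 change of 0.14. Over all 17757 genes tested, 1167 were called higher and 542 lower in RT, and 993 higher and 411 lower in RT_FAP41BBL. Zfp36, which encodes an mRNA-destabilising protein, rose by 0.80, Pdk4, a kinase gene of the switch to fat oxidation, by 1.96, and Ndrg2 by 3.27, while Per1 and Irs2 fell. Ndrg2 stood at 84.7 to 133 CPM in the 3 muscle-rich RT libraries and at 4.7 to 24.3 in the others, and its change with the muscle covariate was 1.17 (adjusted p = 0.107). That of Pdk4 was then 0.79 (adjusted p = 0.538) and that of Zfp36 0.80 (adjusted p = 0.27). In FAP41BBL Per1 was the single gene of the 30 that passed (-1.50 ± 0.17, adjusted p = 0.0141), a call lost without control replicate 1 (adjusted p = 0.109) or 2 (0.0779), and the median was 0.01. In RT_FAP41BBL Rgs2, a brake on G protein signalling, and Zfp36 rose by 1.07 and 0.96, Per1 fell by 1.89, and the median was 0.26. The Rgs2 call was lost without control replicate 2 (adjusted p = 0.0546). The fall of Tsc22d3, Arrdc2, Ddit4 and Per1 thus does not describe the wider list.

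Of 19 tested genes that glucocorticoids are known to repress, 7 rose and none fell in RT, with a median log2 change of 0.76, and 7 rose and none fell in RT_FAP41BBL, with a median of 1.15. Over all 17757 genes tested, 1167 were called higher in RT and 993 in RT_FAP41BBL. Ptgs2, which encodes cyclooxygenase-2, rose by 1.80 and 1.40, Tnf by 1.82 and 2.76, and the monocyte chemokine gene Ccl2 by 1.67 and 1.40. In RT with the muscle covariate, Tnf (2.69, adjusted p = 0.116), Ccl2 (1.84, adjusted p = 0.0929) and Cxcl10 (1.42, adjusted p = 0.213) did not pass. The RT rise of Ptgs2 passed in all 14 alternative fits, that one included. In FAP41BBL none of the 19 passed edgeR's test, 12 had an unadjusted p under 0.05 (5.17% of all genes did), 18 were above 0, and the median was 0.69. These genes are also direct targets of inflammatory signals.

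The 19 chaperones and coregulators of the receptor had medians of 0.07, 0.03 and -0.02 in RT, FAP41BBL and RT_FAP41BBL against control. Stip1, a cochaperone that joins HSP70 to HSP90, rose in RT by 0.56, but with the muscle covariate the change was 0.5 and did not pass (adjusted p = 0.367). In RT_FAP41BBL against RT Stip1, Hsp90aa1 and Ptges3, all of the HSP90 machinery that holds the receptor, fell by 0.56, 0.57 and 0.56. Those calls were lost without RT replicate 2 or any 1 of the RT_FAP41BBL libraries, those of Hsp90aa1 and Ptges3 also without RT replicate 1 (adjusted p from 0.0517 to 0.185). With the muscle covariate the changes of Stip1, Hsp90aa1 and Ptges3 were -0.51, -0.61 and -0.68, and none passed (adjusted p = 0.236, 0.28 and 0.236). Of 12 genes of steroid supply and export 8 could be tested and none passed in any comparison. Hsd11b1, whose enzyme restores active corticosterone from its inert form, lay between 3.73 and 13.1 CPM. Of the untested adrenal enzymes Hsd3b1 had 0 counts over all 12 libraries, Cyp21a1 3, Cyp11b1 1 and Cyp11b2 1. Hormone levels were not measured.

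Several of the 10 genes also answer to other signals, and those were read from their own gene lists. The part of these signals in the changes of the 10 genes was not tested. Over all 17757 genes tested, 1167 were called higher and 542 lower in RT against control. In RT_FAP41BBL against control 993 were called higher and 411 lower. Ddit4 is a hypoxia and p53 target. Of 14 hypoxia genes 2 fell in RT (Pdk1 by 0.59 and Car9 by 0.60) and 1 in RT_FAP41BBL (Egln3 by 0.77), with medians of -0.18 and -0.24. Car9 did not pass without control replicate 1 or 2 or RT replicate 2 or 3 (adjusted p from 0.0994 to 0.148), nor Egln3 without control replicate 1 or 2 or RT_FAP41BBL replicate 2 (0.05 to 0.0713). Of 14 p53 targets 7 rose in RT and 8 in RT_FAP41BBL, and Cdkn1a rose by 1.69 and 1.71. Dusp1 is induced with the immediate early genes, of which 7 of 14 rose in RT and 8 in RT_FAP41BBL. Among them Egr1 rose by 1.66 and 1.6 and Fos by 0.99 and 1.21. Of 6 genes listed for the metal response, which can also induce Mt2, 2 rose in RT, Mt3 by 2.8 and the zinc exporter gene Slc30a1 by 0.62. Mt3 is also counted among the relatives of the members, and whether metals raised it was not tested. With the muscle covariate the changes of Mt3 and Slc30a1 were 3 and 0.63, and neither passed (adjusted p = 0.162 and 0.252). In RT_FAP41BBL Slc30a1 rose by 0.81, and the Mt3 change of 1.37 did not pass (adjusted p = 0.083).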

How the data were processed

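Stranded mRNA libraries of 12 mouse tumour samples were sequenced, 3 in each of 4 groups taken from the labels. The authors deposited raw counts for each gene, made with featureCounts 1.6.0 on GRCm39, per the file headers. STAR 2.7.9a and FastQC 0.11.8 are named per the submitters' processing notes. Gene symbols from a GENCODE annotation matched 51948 of 56884 identifiers.

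The analysis used edgeR 4.0.16 under R 4.3.3. After filterByExpr 17757 genes were tested, libraries were TMM-scaled, and the 12 libraries entered 1 model of the 4 groups, with 8 residual degrees of freedom. Each contrast had a quasi-likelihood test (robust setting), and p-values were adjusted by Benjamini-Hochberg over all genes tested, with a threshold of 0.05. Adjusted p-values of any other tool are given with its name. RPKM used the gene lengths in the files. A list's score in a library is its mean log2 CPM (prior count 2). Steps were tested on simulated counts.

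The members and the gene lists were chosen with earlier results of these data known. Named were the members, Per1, Mt1, Cdkn1a, up to 4 genes of each list with the smallest p per comparison, and the 8 genes most like Tsc22d3 or the members' mean z score (mean log2 CPM at or above 1). Irs2, Arrdc3, Klf13, the untested steroid enzymes, Krt8 and Epcam are named outside that rule, chosen after their values were seen. Alternatives were DESeq2 1.42.0, limma-voom (limma 3.58.1), RLE factors, library totals, no low-count filter, the replicate number as a block, a muscle score covariate, the 2 compared groups alone, and each compared library left out. No 2 libraries of the same group were copies of one another, and pairs across groups were not checked for this.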

Additional observations from a re-analysis of the deposited data

Results flagged for a closer look

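Ptgs2, which encodes cyclooxygenase-2 and belongs to the list of genes that glucocorticoids repress, differed in its response to radiotherapy with and without the agonist. Its level was 38, 48.4 and 49.6 CPM in the control libraries, 158, 161 and 155 in RT, 75.8, 122 and 89.3 with the agonist alone, and 113, 111 and 135 in RT_FAP41BBL. Radiotherapy raised it by 1.80 ± 0.16 on the log2 scale without the agonist, and the change beside the agonist was 0.32 ± 0.16 (adjusted p = 0.4). The difference between these changes, tested as an interaction in edgeR, was -1.48 ± 0.23 (adjusted p = 0.0311). With the muscle score as a covariate it was -1.83 and did not pass (adjusted p = 0.142). Of the 12 fits that left out 1 library it passed in 3, those without RT replicate 3, FAP41BBL replicate 1 or FAP41BBL replicate 2, and the adjusted p reached 0.112 in the others.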

How the results depend on the processing

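The number of genes called in RT against control, 1709, was 2507 by DESeq2 and 1760 by limma-voom. It was 1 with the muscle covariate, 1064 from the 2 groups alone and 805 to 1987 with 1 library left out. For FAP41BBL against control, 1 gene was called, against 9 with no filter, 48 by DESeq2, 2 with the covariate, 0 from the 2 groups alone and 0 to 3 with a library left out. For RT_FAP41BBL against control, 1404 were called, against 2341 by DESeq2, 915 with the covariate, 3223 from the 2 groups alone and 351 to 914 with a library left out. Against RT, 1022 became 2063 by DESeq2, 0 with the covariate and 70 to 2305 with a library left out. Against FAP41BBL, 168 became 774 by DESeq2, 269 from the 2 groups alone and 0 to 132 with a library left out. The interaction's 27 became 17 with library totals, 102 with no filter, 633 by DESeq2, 9 with the replicate block, 0 with the covariate and 0 to 269 with a library left out.

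Of the 10 members, RT against control called 0 with the covariate, 2 from the 2 groups alone and 2 to 4 with a library left out. It called 4 by DESeq2 or limma-voom, and 4 with RLE factors, library totals, no filter or the replicate block. FAP41BBL against control called 3 with no filter, 4 by DESeq2 and 0 to 2 with a library left out (2 without control replicate 3). RT_FAP41BBL against FAP41BBL called 2 by DESeq2, and the interaction called 1 with no filter, 2 by DESeq2 and 0 to 1 with a library left out. The median correlation of the members' pairs ran from -0.04 to 0.15 with a library left out. The cause of these shifts was not tested.

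Changes that turned direction were all small or uncalled. With the covariate, Mt2 and Nr3c1 in RT became -0.21 and 0.03, Sgk1 in RT_FAP41BBL against control -0.01, Zbtb16 and Fkbp5 against RT 0.21 and -0.06, and the Mt2 interaction 0.37. With library totals, Nr3c1 against RT and the Mt2 interaction became 0.01, and with the replicate block Zbtb16 against RT became 0.16 and the Mt2 interaction 0.01. With a library left out, the ranges were, in RT against control, -0.11 to 0.03 for Sgk1 and -0.06 to 0.02 for Nr3c1. They were -0.06 to 0.28 for Mt2 in FAP41BBL against control, and in RT_FAP41BBL against control -0.07 to 0.01 for Nr3c1 and -0.08 to 0.06 for Sgk1. Against RT they were -0.3 to 0.08 for Dusp1, -0.36 to 0.19 for Ddit4, -0.03 to 0.09 for Sgk1, -0.07 to 0.4 for Fkbp5, -0.5 to 0.26 for Zbtb16 and -0.05 to 0.01 for Nr3c1. Against FAP41BBL they were -0.13 to 0.4 for Klf9 and -0.03 to 0.16 for Tsc22d3, and for the Mt2 interaction -0.2 to 0.13.

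The replicate numbers did not pair the libraries: over the 18 pairs of libraries with the same number, the correlation of deviations ran from -0.32 to 0.33 with a median of -0.06. Each library's correlations with the libraries of other groups were also averaged by replicate number. The highest average fell on the library's own number for 4 of 12 libraries. With 3 libraries a group, the number of libraries limits what could be detected. Each library held at least 34076477 counts, and the effect of depth on detection was not tested.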

Other observations

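Of 19 tested relatives of the members 12 were above 0 and 7 below, and 5 rose, in RT against control: Dusp5 by 1.26 and Dusp4 by 0.71 on the log2 scale, both phosphatase genes like Dusp1, Ddit4l by 3.49, a relative of Ddit4, Mt3 by 2.80, and Arrdc3 by 0.46. Klf13 fell by 0.45. Over all 17757 genes tested, 1167 were called higher and 542 lower in RT, and 993 higher and 411 lower in RT_FAP41BBL. The rise of Ddit4l was from 0.449 to 1.08 CPM in control to 4.36 to 13.7 in the muscle-rich RT libraries, and was 0.56 with the muscle covariate (adjusted p = 0.874). It was also not called without RT replicate 3 or any 1 of the controls (adjusted p from 0.0624 to 0.0967). With the covariate the changes of Dusp5, Dusp4 and Mt3 were 1.58, 0.95 and 3, and none of them passed (adjusted p = 0.0918, 0.202 and 0.162). In RT_FAP41BBL against control Dusp5 and Sgk3 rose by 0.88 and 0.52, the Sgk3 call being lost when any 1 of the 6 libraries was left out (adjusted p from 0.0697 to 0.116). In FAP41BBL none of the 19 passed edgeR's test, with 5 at an unadjusted p under 0.05 (5.17% of all genes).

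Of 16 clock genes other than Per1, 8 were above 0 and 8 below in RT_FAP41BBL against control. Cry1 rose by 0.65 and Arntl fell by 0.48 (median 0.06), and Arntl did not pass with the replicate block (adjusted p = 0.0572). Both calls were lost without control replicate 2, control replicate 3 or any 1 of the RT_FAP41BBL libraries (adjusted p from 0.0522 to 0.184). In RT against control Hlf rose by 2.29, from 0.281 to 0.438 CPM in control to 1.07 to 2.54 in RT, and the median was 0.38. With the muscle covariate the Hlf change was 1.14 (adjusted p = 0.688), and it did not pass without RT replicate 3 or any 1 of the controls (adjusted p from 0.0672 to 0.0891). In FAP41BBL against control none passed edgeR's test, 6 had an unadjusted p under 0.05 (5.17% of all genes) and the median was 0.32. The hour of harvest is not given for any library.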
